A study of Homo sapiens with 9 samples.

Results

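A set of 10 noncoding host genes of small nucleolar RNAs (snoRNAs) was followed in H1975 cells whose GRP78 had been depleted and then restored: GAS5, ZFAS1, SNHG1, SNHG5, SNHG6, SNHG8, SNHG12, SNHG15, SNHG16 and EPB41L4A-AS1. They were chosen by what they are, spliced noncoding RNAs that carry snoRNAs in their introns and are known to respond to translation and to RNA decay, and were matched by symbol to 10 of the 61544 genes counted. The choice was made with earlier results of these data known. All 10 passed the filter on low counts, which left 18653 genes in the tests. H1975 is a human lung adenocarcinoma line, and GRP78, encoded by HSPA5, is the major chaperone of the endoplasmic reticulum. All groups received si78, an siRNA against the 3′UTR of the endogenous GRP78 mRNA, followed by a plasmid. The plasmid was the empty pcDNA3 vector, F-78(WT), which is FLAG-tagged wild-type GRP78, or F-78(NLS Mut), abbreviated NLS Mut, in which lysines of the nuclear localization signal are alanines. Total RNA-Seq gave 3 libraries of each group. Transfection was transient and in a single cell line, cells without si78 were not analysed here, and no label says that the libraries came from separate cultures, so the p-values measure only the spread between these libraries.

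Each library held 17671055 to 27476298 reads on genes. HSPA5 checked the labels of the vector libraries against the other 2 groups: it measured 359 to 391 CPM (read counts scaled by the TMM library sizes) in the vector libraries, 5031 to 6145 CPM in F-78(WT) and 4765 to 5156 CPM in F-78(NLS Mut). The ranges of the latter pair overlapped, so HSPA5 did not check F-78(WT) against NLS Mut, which differ in the plasmid sequence. HSPA5 still tended higher in F-78(WT) than in NLS Mut, at a log2 fold change of 0.19 ± 0.05. Its adjusted p was 0.0795 in edgeR's quasi-likelihood test, and it passed 0.05 in 6 of 11 alternative fits with all libraries of the groups. The part of this difference in the levels of the hosts was not tested. The epithelial markers EPCAM, CDH1, KRT7, KRT8, KRT18 and KRT19 all lay between 184.5 and 1745 CPM. Of 6 leukocyte, endothelial and fibroblast markers, PTPRC, VWF and COL3A1 stayed at or under 0.601 CPM, while CD14, PECAM1 and PDGFRB lay between 2.96 and 11.7 CPM. The vector 1 library stood apart from the others: over all genes, 104 were called for F-78(WT) against vector and 148 for F-78(NLS Mut) against vector with it, and 1256 and 1002 without it.

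snoRNAs are short nuclear RNAs that guide chemical changes on ribosomal RNA. Box C/D snoRNAs guide the methylation of ribose and box H/ACA snoRNAs guide the conversion of uridine to pseudouridine. Most human snoRNAs are cut from introns while the host transcript is spliced. In a noncoding host the spliced exons have no long reading frame, so a ribosome that loads on them stops early and the transcript is degraded by nonsense-mediated decay (NMD), the pathway that removes RNAs with early stop codons. Such hosts accumulate when translation or NMD is blocked. Many begin with a 5′ terminal oligopyrimidine (TOP) sequence, a C followed by a run of pyrimidines, which ties them to the same growth-dependent control of translation as ribosomal protein mRNAs.

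The starts of the host transcripts were read for this sequence, because it is the feature that most ties these genes to translation. A TOP start was taken as C and then at least 4 pyrimidines (C or T) from the first base of an annotated transcript, on the transcribed strand only. In GENCODE 29, 8 of the 10 hosts had at least 1 transcript that began this way, beside 6.58% of 58721 genes, and 23 of their 136 transcripts did, which is 16.9%, beside 2.41% of all 206694 transcripts. In the RefSeq start windows (GRCh38.p14), where the run could begin up to 10 bases from the start, 5 of the 8 hosts with a window had one, beside 33.3% of 27305 windows and 81.5% of 65 windows of ribosomal protein genes. GAS5, SNHG1 and EPB41L4A-AS1 had none in their RefSeq window. The 2 hosts without a TOP transcript in GENCODE 29 were SNHG15 and EPB41L4A-AS1. The first 30 bases are printed for 6 hosts with a TOP transcript in GENCODE 29 (for GAS5 and SNHG1 in that annotation only), with the pyrimidine run in capitals, and for EPB41L4A-AS1, which is the host called below and has no such run. In GRCh38 they lie in first exons at chr1:173867960-173867989 (minus strand, GAS5), chr20:49278642-49278671 (plus, ZFAS1), chr11:62855450-62855479 (minus, SNHG1), chr6:85678704-85678733 (minus, SNHG5), chr1:28581844-28581873 (minus, SNHG12), chr17:76557769-76557798 (plus, SNHG16) and chr5:112160526-112160555 (plus, EPB41L4A-AS1).
GAS5: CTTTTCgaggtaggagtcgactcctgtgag
ZFAS1: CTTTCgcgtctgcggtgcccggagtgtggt
SNHG1: CTCCTgtctgcaggatttacgcgcacgttg
SNHG5: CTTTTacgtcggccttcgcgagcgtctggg
SNHG12: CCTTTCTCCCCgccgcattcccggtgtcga
SNHG16: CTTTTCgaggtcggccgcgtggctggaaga
EPB41L4A-AS1: tgtcgggtcccaaaatacgtggtctaaagt
The run was longest in SNHG12, with 11 pyrimidines, and GAS5 and SNHG16 began with the same 6. A TOP start was annotated for 6 of 29 GAS5 transcripts but for 1 of 25 SNHG1 transcripts, so the share of a host's RNA that begins there was not measured by counts per gene.

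The hosts differ in the snoRNAs they carry. RefSeq places 36 snoRNA genes inside the 10 hosts, 28 of box C/D and 7 of box H/ACA, with 1 of no named class. GAS5 holds 11 of them and SNHG1 holds 9, mainly box C/D, while SNHG8 (SNORA24), SNHG15 (SNORA9) and EPB41L4A-AS1 (SNORA13) each hold a single box H/ACA snoRNA. Of the 36, 24 had a row in the count tables, and all but 5 of these had no read in any library. The highest was SNORD12C in ZFAS1, with at most 15 reads in a library. Reads shared with a gene on the same strand are left out of these counts. Many empty snoRNAs lie in annotated exons of their host, such as SNORA24 with all 131 bases and SNORA9 with all 133. SNORD99, SNORD1B, SNORD12C and SNORD12B had reads and share no exon base with their host, but SNORA13 shares none and was empty. The empty rows thus do not show that these snoRNAs gave no reads. The values given for the hosts are reads on their annotated exons. These exons cover 3756 of 3927 bases in SNHG1 and 4266 of 4595 in SNHG12, but 2243 of 17561 in ZFAS1. Where they cover most of the gene, reads from unspliced RNA can be included. The levels per kilobase given below are divided by these exon lengths. The amount of snoRNA in the cells was not measured.

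Host transcripts differed widely in abundance, and the order of some depended on the counting rule. By the unstranded counts used here, which leave out reads that fall on genes of both strands, GAS5, the growth arrest-specific transcript, had 40.8 ± 3.02 CPM per kilobase of annotated exon (SD over the 9 libraries). SNHG8 followed at 30.2 ± 2.94, SNHG6 at 27.7 ± 2.92 and SNHG1 at 23.0 ± 1.96 CPM per kb, and the ranges of these neighbours overlapped. SNHG15 at 13.7 ± 1.84 and SNHG16 at 13.6 ± 0.66 CPM per kb also overlapped. ZFAS1 lay at 11.4 ± 0.766, EPB41L4A-AS1 at 6.52 ± 1.09 and SNHG12 at 4.67 ± 0.927 CPM per kb, with overlapping ranges for the latter pair. SNHG5 was lowest at 0.962 ± 0.354 CPM per kb, on 20 to 82 reads per library, so its values carry the largest counting error of the 10. With the counts made for each strand summed, which gives a read in such an overlap to both genes, SNHG6 stood at 60.6 ± 3.79, GAS5 at 45.6 ± 3.59 and SNHG16 at 30.6 ± 1.18 CPM per kb, so SNHG6 came above GAS5 and SNHG16 above SNHG1 and SNHG15. The other 7 hosts lay between 0.962 and 30.2 CPM per kb by that sum, in the same order among themselves.

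The hosts lie on 9 chromosomes (GRCh38, GENCODE 29), and GAS5 and SNHG12 share chromosome 1, at 173863900 to 173868882 and 28578538 to 28583132, both on the minus strand. Also on the minus strand are SNHG5 (chromosome 6, 85660950 to 85678748), SNHG15 (chromosome 7, 44983023 to 44986961) and SNHG6 (chromosome 8, 66921684 to 66926398). On the plus strand lie SNHG8 (chromosome 4, 118278709 to 118279823), SNHG16 (chromosome 17, 76557766 to 76565348) and ZFAS1 (chromosome 20, 49278178 to 49295738). Several hosts overlap a gene on the other strand, and the counts used here did not separate strands. Reads in such overlaps were assigned to neither gene. For SNHG16 the count used was 44.5% of the sum of the counts made for each strand, and for SNHG6 it was 45.7%, so over a factor of 2 in the levels of these hosts rests on reads that cannot be given to a strand. It was 84.7% for EPB41L4A-AS1, which shares 49.6% of its exon bases with EPB41L4A, 89.4% for GAS5 and 98.1% to 100% for the other 6 hosts. These percentages do not show reads shared with a gene on the same strand, which are left out of all these counts. Exon bases shared in that way ranged from 0% in GAS5 and EPB41L4A-AS1 to 20.9% in ZFAS1. They were 15.3% in SNHG1, 14.2% in SNHG8 and 9.35% in SNHG12.

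**Figure D1:**
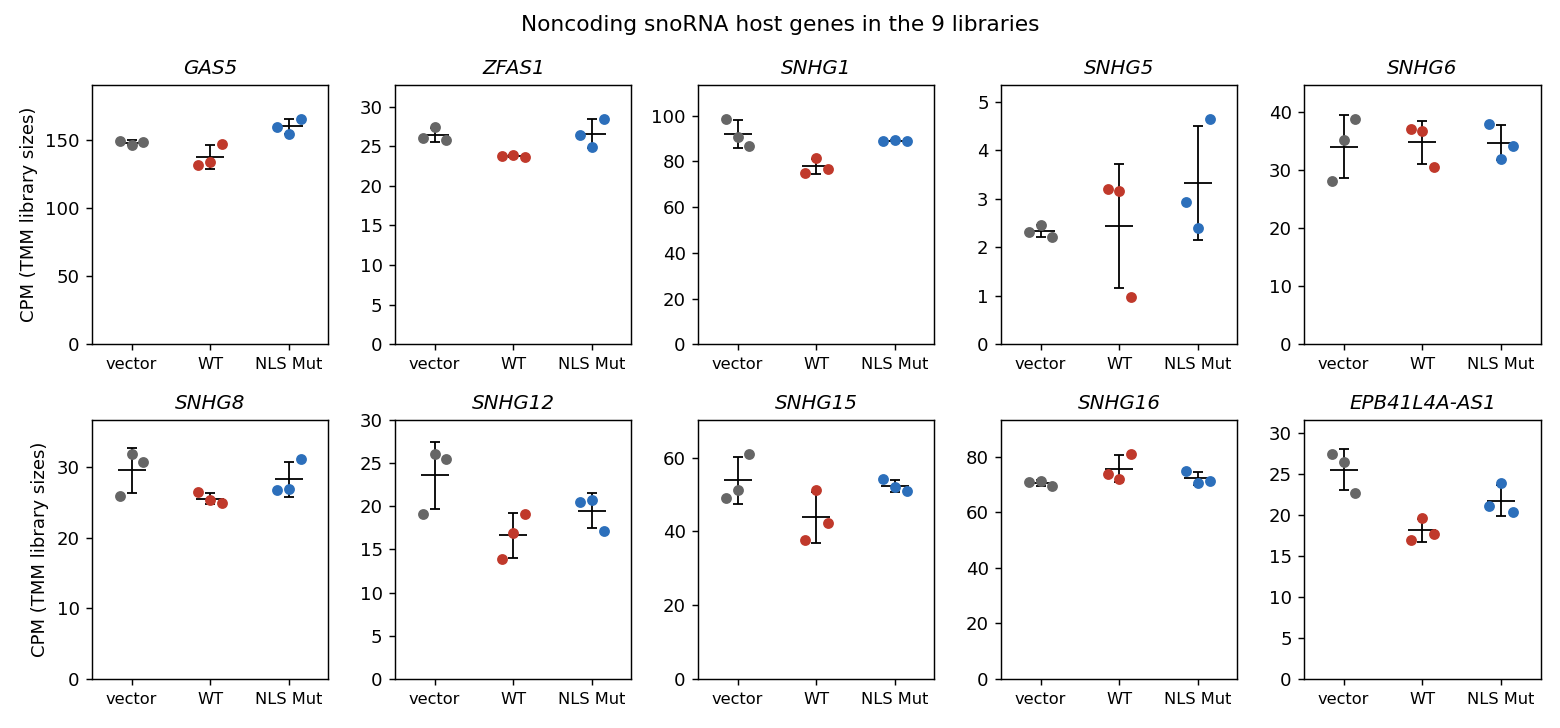
Level of each host (vertical axis, CPM on TMM library sizes, starting at 0) in the 3 libraries each of vector, F-78(WT) and NLS Mut; each point is a library, and the bars give the mean and SD of a group. EPB41L4A-AS1, SNHG1 and ZFAS1 have all 3 F-78(WT) points below all vector and all F-78(NLS Mut) points, while SNHG6 shows no separation. Of all tested genes, 6.54% were lower without overlap in F-78(WT) against vector and 9.41% against NLS Mut. The share that was lower than both at once was not computed.

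The first comparison asked how the hosts differed when wild-type GRP78 was put back. EPB41L4A-AS1 was the host that fell in F-78(WT) against vector. It measured 27.5, 26.5 and 22.7 CPM in the vector libraries and 17.0, 19.7 and 17.7 CPM in the F-78(WT) libraries. Every F-78(WT) library lay below every vector library. The level was 0.711 times that of vector, a log2 fold change of -0.49 ± 0.11 (SE), with an adjusted p of 0.0406 in edgeR's quasi-likelihood test. EPB41L4A-AS1 is the host of SNORA13 on chromosome 5 (112160526 to 112164276, plus strand). With a single library left out, the call was kept only without vector 1 (adjusted p 0.0249) or F-78(WT) 2 (0.0211), and the adjusted p was 0.242 without vector 2, 0.0641 without vector 3, 0.228 without F-78(WT) 1, 0.176 without F-78(WT) 3 and 0.0592 to 0.0764 without 1 of the F-78(NLS Mut) libraries. It was also lost in a fit of only these 2 groups (adjusted p 0.118) and with all libraries thinned to the shallowest (0.0515).

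Of the remaining 9 hosts none was called, and 3 had an unadjusted p under 0.05. SNHG12, host of SNORA44, SNORA61, SNORA16A and SNORD99, had the largest difference of the 10. Its levels were 19.1, 26.1 and 25.5 CPM in vector and 13.9, 16.9 and 19.1 CPM in F-78(WT), and the groups met at vector 1 and F-78(WT) 3. The log2 fold change was -0.51 ± 0.13 with an adjusted p of 0.0762, and the adjusted p ran from 0.00177 without vector 1 to 0.478 without vector 2. It also passed without a filter on low counts (0.00722). SNHG1, whose introns hold the cluster from SNORD25 to SNORD31, measured 98.7, 90.6 and 86.8 CPM in vector and 75.0, 81.5 and 76.8 CPM in F-78(WT). These groups did not overlap, at a log2 fold change of -0.24 ± 0.07 and an adjusted p of 0.116, which was 0.0119 after a correction for GC content and 0.0664 to 0.413 without 1 library. For SNHG15, the short-lived host of SNORA9, 49.2, 51.3 and 61.2 CPM in vector stood against 37.8, 51.3 and 42.3 CPM in F-78(WT). The groups overlapped through F-78(WT) 2, the log2 fold change was -0.30 ± 0.10 and the adjusted p was 0.185. SNHG15 passed the threshold without vector 1 (adjusted p 0.0204) and without F-78(WT) 2 (0.0217), and reached 0.742 without another library.

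The other 6 hosts had unadjusted p-values above 0.05. ZFAS1, the host of the SNORD12 snoRNAs at the start of ZNFX1, measured 26.1, 27.5 and 25.8 CPM in vector and 23.7, 23.9 and 23.6 CPM in F-78(WT). The groups did not overlap, yet the log2 fold change of -0.16 ± 0.10 had an adjusted p of 0.59. GAS5 had a log2 fold change of -0.11 (adjusted p 0.533) and SNHG8 of -0.21 (adjusted p 0.435). SNHG16 went the other way without overlap, from 69.5 to 71.5 CPM in vector to 72.0 to 81.2 CPM in F-78(WT), at a log2 fold change of 0.10 and an adjusted p of 0.642. SNHG6 and SNHG5 gave log2 fold changes of 0.03 and 0.08, and the sign of either turned when certain single libraries were left out.

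In all, 1 of 10 hosts was called in F-78(WT) against vector, beside 0.558% of all tested genes. An unadjusted p under 0.05 was reached by 4 hosts, beside 11.7% of all genes. Lower levels without overlap of the groups were found in 3 hosts (SNHG1, ZFAS1 and EPB41L4A-AS1), beside 6.54% of genes, and higher levels without overlap in 1 (SNHG16), beside 6.53%. Of the 10, 7 had a negative log2 fold change, with a median of -0.18, where the median over all tested genes was -0.00228. DESeq2 on the same counts called SNHG1 (adjusted p 0.0425) and SNHG12 (0.0489) beside EPB41L4A-AS1 (0.0125). Among the 11100 genes to which it gave an adjusted p, it called 135 higher and 121 lower. In bulk RNA a lower level in every cell and a smaller share of cells with the RNA cannot be told apart.

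**Figure D2:**
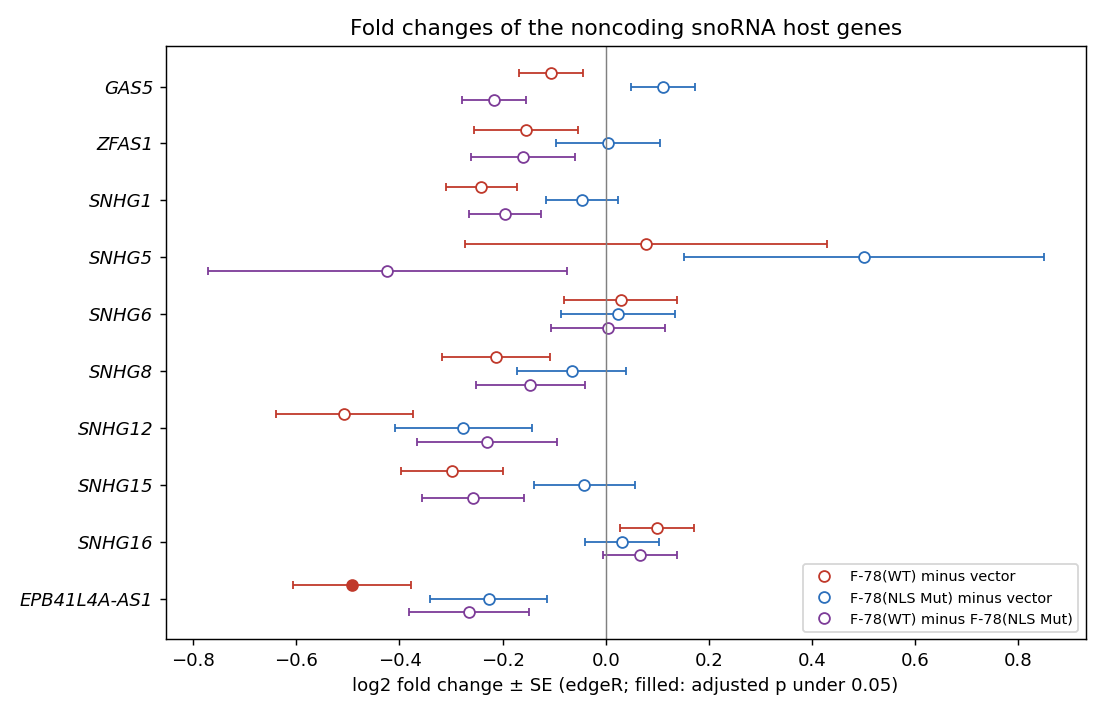
The log2 fold change of each host with its standard error (horizontal axis) in the 3 comparisons, from edgeR; filled points passed an adjusted p of 0.05. The single filled point is EPB41L4A-AS1 in F-78(WT) against vector at -0.49, and SNHG5 has the widest errors.

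The second comparison set F-78(NLS Mut), the GRP78 with the altered nuclear localization signal, against the same vector libraries. No host was called by edgeR, beside 0.793% of all genes, and DESeq2 called none. SNHG12 alone had an unadjusted p under 0.05, beside 12.2% of genes, with 20.5, 20.8 and 17.1 CPM in F-78(NLS Mut) and a log2 fold change of -0.28 ± 0.13 (adjusted p 0.401). EPB41L4A-AS1 measured 21.0, 23.9 and 20.3 CPM, between the vector and F-78(WT) means, at a log2 fold change of -0.23 ± 0.11 and an adjusted p of 0.428. GAS5 measured 159, 155 and 165 CPM, above the 146 to 149 CPM of the vector libraries and without overlap. Its log2 fold change was 0.11 ± 0.06, with an adjusted p of 0.485. GAS5 was the 1 host that was higher without overlap, beside 9.28% of genes, and 0 hosts were lower without overlap, beside 8.82%. SNHG5 had the largest value, a log2 fold change of 0.50 ± 0.35, which rested on F-78(NLS Mut) 3 with 4.65 CPM against 2.94 and 2.39 CPM in the other 2 libraries. SNHG1, SNHG6, SNHG8, SNHG15, SNHG16 and ZFAS1 lay between -0.07 and 0.03 on the log2 scale. The signs were split 5 to 5, and the median of the 10 was -0.02.

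The comparison of F-78(WT) with NLS Mut is the test of whether the 2 forms of GRP78 left the hosts at different levels. No host was called by edgeR, beside 0.504% of all genes. An unadjusted p under 0.05 was reached by 4 hosts (GAS5, SNHG1, SNHG15 and EPB41L4A-AS1), beside 11.6% of genes. In this comparison 5 hosts (GAS5, SNHG1, SNHG8, ZFAS1 and EPB41L4A-AS1) were lower without overlap of the groups, beside 9.41% of genes, and 0 were higher without overlap, beside 8.25%. Of the 10, 8 had a negative log2 fold change, with a median of -0.21 against -0.00542 over all genes.

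GAS5, which is known to accumulate in growth-arrested cells and when translation is inhibited, was nearest to a call. It measured 131, 134 and 147 CPM in F-78(WT) and 159, 155 and 165 CPM in F-78(NLS Mut). All F-78(WT) libraries lay below all F-78(NLS Mut) libraries, at 0.86 times the level. The log2 fold change was -0.22 ± 0.06, with an adjusted p of 0.107 in edgeR and 0.0239 in DESeq2. It passed in edgeR without vector 1 (adjusted p 0.0272), which enters this comparison only through the shared scaling, filter and estimate of spread, with only these 2 groups in the fit (0.0429) and after the GC correction (0.0348), and reached 0.403 without another library. SNHG1 stood at 75.0 to 81.5 CPM in F-78(WT) and at 88.9, 89.3 and 89.0 CPM in F-78(NLS Mut), a log2 fold change of -0.19 ± 0.07 and an adjusted p of 0.233. EPB41L4A-AS1 had a log2 fold change of -0.27 ± 0.12 (adjusted p 0.36) and SNHG15 of -0.26 ± 0.10 (adjusted p 0.278). SNHG8 stood at 25.0 to 26.5 CPM against 26.9 to 31.2 CPM, a log2 fold change of -0.15 (adjusted p 0.653). ZFAS1 stood at 23.6 to 23.9 CPM against 24.9 to 28.5 CPM, a log2 fold change of -0.16 (adjusted p 0.586). SNHG12 measured -0.23 and SNHG16 0.07 on the log2 scale, SNHG6 stood at 0.004, and SNHG5 gave -0.42 ± 0.35 with F-78(WT) 3 at 20 reads. The 3 comparisons share their libraries pairwise, so their values for a host are not independent of each other.

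Summed over the 10 hosts, the level was 497, 509 and 512 CPM in vector, 439, 464 and 464 CPM in F-78(WT) and 513, 497 and 513 CPM in F-78(NLS Mut). The F-78(WT) sums were the 3 lowest of the 9. GAS5 made up 28.7% to 32.3% of the sum in each library, so the sum weights GAS5 and SNHG1 most. The hosts above their own mean over the 9 libraries numbered 3, 3 and 1 of 10 in F-78(WT) 1, 2 and 3. They numbered 4, 7 and 8 in the vector libraries and 8, 5 and 6 in the F-78(NLS Mut) libraries. These means include the F-78(WT) libraries, and the same count over all genes was not made, so the numbers describe the hosts only.

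The genes that neighbour a host were read out beside it. SNHG1 on chromosome 11 (62851988 to 62855914, minus strand) starts 188 bases from SLC3A2, which runs the other way and encodes the heavy chain of the amino acid transporter CD98. No exon base is shared between them in the annotation. SLC3A2 measured 370, 404 and 439 CPM in vector, 302, 361 and 343 CPM in F-78(WT) and 431, 435 and 413 CPM in F-78(NLS Mut). The F-78(WT) libraries were the 3 lowest for both genes of this pair. How many genes or pairs of neighbours over the genome do the same was not computed, so this describes the pair only. SLC3A2 fell in F-78(WT) against vector, at a log2 fold change of -0.27 ± 0.06 and an adjusted p of 0.0456, and against F-78(NLS Mut), at -0.35 ± 0.06 and an adjusted p of 0.00548, while SNHG1 was called in neither. The first SLC3A2 call was kept only without vector 1 (adjusted p 1.7e-04) or F-78(WT) 2 (0.0113) when a library was left out, with adjusted p up to 0.336, and the second was lost without F-78(WT) 1, NLS Mut 1 or NLS Mut 2, with adjusted p up to 0.0859. The first was also lost with only these 2 groups in the fit (adjusted p 0.163) and with the counts of both strands summed (0.0526).

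**Figure D3:**
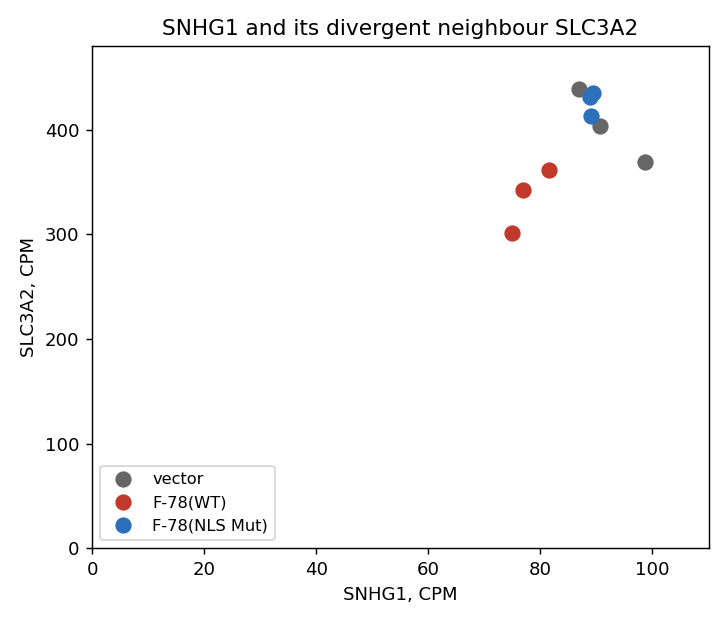
Level of SNHG1 (horizontal axis, CPM) and of SLC3A2 (vertical axis, CPM) in each of the 9 libraries, both axes from 0. The 3 F-78(WT) points, at 75.0 to 81.5 CPM of SNHG1 and 302 to 361 CPM of SLC3A2, lie lower on both axes than the other 6. The share of other gene pairs that do so was not computed.

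None of 6 other tested neighbours was called by edgeR or DESeq2 in a comparison, and none had an unadjusted p under 0.05. ZNFX1, whose start lies 248 bases from that of ZFAS1 on the other strand, measured 383 to 400 CPM in vector, 404 to 440 CPM in F-78(WT) and 383 to 417 CPM in F-78(NLS Mut), with log2 fold changes of 0.03 to 0.09. ZBTB37, which starts 800 bases from GAS5 inside its span on the other strand, had log2 fold changes of 0.01 to 0.05. TRNAU1AP, at the 3′ end of SNHG12, lay between -0.15 and 0.18. GAS5-AS1, MCMDC2 and ENSG00000284526 were counted at most at 2.85 CPM, and their reads inside a host's exons were assigned to neither gene. EPB41L4A, on the other strand of EPB41L4A-AS1, did not pass the filter on low counts.

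The genes around the hosts' life cycle were described from lists, which were drawn up with earlier results of these data known. Over all 18653 tested genes the median log2 fold changes were -0.00228 in F-78(WT) against vector, -0.00174 in NLS Mut against vector and -0.00542 in F-78(WT) against NLS Mut, and 50.5%, 50.4% and 51.1% of values were negative. Among 20 other noncoding snoRNA hosts, 15 were tested. SNHG17 fell in F-78(WT) against vector, from 82.1, 86.3 and 86.8 to 62.4, 77.7 and 58.9 CPM. This is a log2 fold change of -0.36 ± 0.08 and an adjusted p of 0.0387. It was kept only without vector 1 (adjusted p 0.0028) or F-78(WT) 2 (7.99e-04) when a library was left out, and was lost with only these 2 groups in the fit (0.143). The other 14 were not called, where 0.558% of all genes were called, and 9 of the 15 were negative, with a median of -0.06. None of the 15 was called by edgeR or DESeq2 in the other 2 comparisons, with 1 and 2 at an unadjusted p under 0.05, beside 12.2% and 11.6% of all genes. The largest value in each was that of SNHG21 (log2 fold changes of -1.52 and 1.62), a gene at no more than 0.56 CPM.

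The machinery of NMD did not differ at the threshold in edgeR, while DESeq2 called some factors in 1 comparison. Of 23 NMD factors, all tested, none was called in any comparison by edgeR, with 3, 4 and 6 at an unadjusted p under 0.05 in F-78(WT) against vector, F-78(NLS Mut) against vector and F-78(WT) against NLS Mut, and with 0, 3 and 0 called by DESeq2. The shares of all genes at an unadjusted p under 0.05 were 11.7%, 12.2% and 11.6%. The largest differences were SMG9, a subunit of the SMG1 kinase complex, at -0.32 (adjusted p 0.161) in the first, the SMG1 kinase itself at 0.21 (adjusted p 0.0824) in the second, and the exon junction protein RBM8A at 0.25 (adjusted p 0.419) in the third. The medians were -0.01, 0.04 and -0.10 on the log2 scale. Negative values were found in 13, 6 and 17 of the 23, beside 50.49%, 50.35% and 51.15% of all genes.

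Messenger RNAs known to be degraded by NMD included the largest decreases that passed the test among the lists. Of 11, all tested, 4 fell in F-78(WT) against vector, none rose, and all 11 log2 fold changes were negative, with a median of -0.19. Of all genes 0.558% were called and 50.5% negative. This list, too, was drawn up with earlier results of these data known, so its counts describe the list and are not a test of NMD. ATF3, a stress-induced transcription factor, fell from 38.9, 43.1 and 42.2 to 22.2, 24.3 and 23.2 CPM, a log2 fold change of -0.83 ± 0.09 and an adjusted p of 7.87e-06. DDIT3, which encodes CHOP, had a log2 fold change of -0.63 (adjusted p 3.28e-04), GADD45A, a growth arrest and DNA damage gene, of -0.54 (adjusted p 6.84e-04), and UPP1, a uridine phosphorylase, of -0.28 (adjusted p 0.0259). ATF3, DDIT3 and GADD45A are also known to be induced transcriptionally by endoplasmic reticulum stress. UPP1 lost its call without vector 2, vector 3, F-78(WT) 1, F-78(WT) 3 or NLS Mut 1, with adjusted p up to 0.228, and with only these 2 groups in the fit (0.123).

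Against F-78(NLS Mut), 3 of the 11 fell in F-78(WT) and again all 11 were negative, with a median of -0.13, beside 0.504% of all genes called and 51.1% negative. DESeq2 called 4 of the 11. DDIT3 had a log2 fold change of -0.37 with an adjusted p of 0.0606, which ranged from 0.00837 to 0.207 over the alternatives with all libraries of the groups and passed in 7 of 11. ATF3 had a log2 fold change of -0.65 (adjusted p 3.48e-04), UPP1 of -0.48 (adjusted p 5.85e-05) and GADD45A of -0.42 (adjusted p 0.012). GADD45A kept its call only without a vector library or F-78(WT) 2, and its adjusted p reached 0.117. In F-78(NLS Mut) against vector none of the 11 was called by edgeR, with 2 at an unadjusted p under 0.05 (12.2% of all genes) and 1 called by DESeq2. DDIT3 had the largest value there, a log2 fold change of -0.26 (adjusted p 0.187).

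Most proteins that bind and mature snoRNAs had negative values in F-78(WT) against vector and against NLS Mut, though few were called. Of 19 snoRNP proteins and assembly factors, all tested, NOP10, a core protein of box H/ACA particles, fell in F-78(WT) against vector. It measured 43.9, 46.4 and 47.7 CPM in vector and 26.1, 37.5 and 36.9 CPM in F-78(WT). The log2 fold change was -0.46 ± 0.10, with an adjusted p of 0.0365. The call was kept only without vector 1 (adjusted p 0.00335) or F-78(WT) 2 (0.0104) when a library was left out, and was lost with only these 2 groups in the fit (0.133). The list had 17 negative values there, with a median of -0.10, beside 50.5% of all genes negative and 0.558% called. In F-78(NLS Mut) against vector none was called by edgeR, 4 had an unadjusted p under 0.05 (12.2% of all genes) and 2 were called by DESeq2. The box H/ACA assembly factor SHQ1 was the largest at 0.32 (adjusted p 0.0903).

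Against F-78(NLS Mut), F-78(WT) was lower in DKC1, the pseudouridine synthase of box H/ACA particles, and in TCOF1, the nucleolar protein treacle. DKC1 measured 208, 218 and 203 CPM in F-78(WT) and 248, 253 and 245 CPM in F-78(NLS Mut), a log2 fold change of -0.24 ± 0.06 and an adjusted p of 0.0469. TCOF1 measured 153, 156 and 162 CPM against 185, 197 and 187 CPM, a log2 fold change of -0.27 ± 0.06 and an adjusted p of 0.047. Of the 19, 18 were negative, with a median of -0.18 beside -0.21 for the 10 hosts, and 10 had an unadjusted p under 0.05, beside 51.1% and 11.6% of all genes. Both calls were lost with DESeq2's size factors in edgeR (adjusted p 0.0523 for either gene) and with both strands summed (0.0557 and 0.0536). DKC1 kept its call only without vector 1 (adjusted p 0.00422), vector 3 (0.039) or F-78(WT) 2 (0.0435), and TCOF1 only without vector 1 (0.002) or vector 3 (0.0459).

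**Figure D4:**
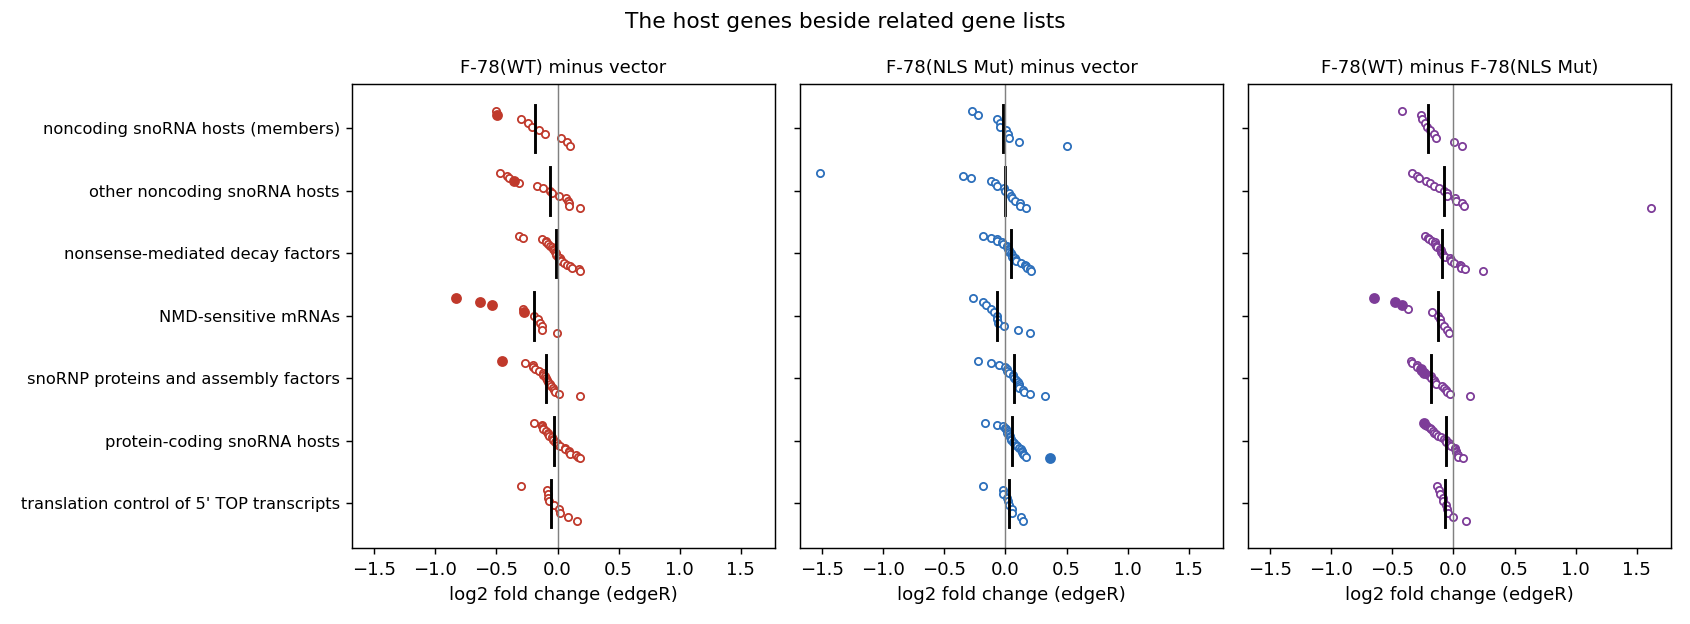
The log2 fold change of each tested gene (horizontal axis, edgeR, same scale in all panels) in the 10 hosts and 6 related lists, 1 panel per comparison; filled points passed an adjusted p of 0.05 and black bars are list medians. In F-78(WT) against vector the filled points farthest to the left are ATF3 at -0.83, DDIT3 at -0.63 and GADD45A at -0.54, all NMD-sensitive mRNAs.

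Protein-coding hosts of snoRNAs carry them in the introns of translated mRNAs. Of 24, all tested, none was called in F-78(WT) against vector by edgeR, with 7 at an unadjusted p under 0.05 (11.7% of all genes), 2 called by DESeq2 and a median of -0.03. TAF1D, a subunit of the RNA polymerase I factor SL1, had the largest value at -0.19 (adjusted p 0.175). HSPA8, the cytosolic chaperone HSC70, rose in F-78(NLS Mut) against vector, from 1073, 1158 and 1097 to 1330, 1491 and 1461 CPM, a log2 fold change of 0.36 ± 0.05 and an adjusted p of 6.39e-05, which held without any single library. DKC1, itself a snoRNA host, was the 1 edgeR call of this list between F-78(WT) and NLS Mut. DESeq2 called 3 of the list in NLS Mut against vector and 6 between F-78(WT) and NLS Mut. An unadjusted p under 0.05 was reached by 7 in either, beside 12.2% and 11.6% of all genes. The medians were 0.05 and -0.06 in these 2 comparisons.

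Of 10 regulators of TOP mRNA translation, all tested, none was called in any comparison by edgeR or DESeq2, with 2, 1 and 1 at an unadjusted p under 0.05 (11.7%, 12.2% and 11.6% of all genes). EIF4EBP1, a repressor of cap-dependent translation that mTOR inactivates, had log2 fold changes of -0.30 (adjusted p 0.168) in F-78(WT) and -0.18 (adjusted p 0.458) in F-78(NLS Mut) against vector. LARP4 was the largest between the 2 forms of GRP78, at -0.13 (adjusted p 0.464). The medians were -0.05, 0.03 and -0.07.

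Cell type markers were read beside these results. CDH1 fell in F-78(NLS Mut) against vector, at a log2 fold change of -0.25 (adjusted p 0.0437), and CDH1 and KRT19 were lower in NLS Mut than in F-78(WT), with F-78(WT) minus NLS Mut at 0.27 (adjusted p 0.0364) and 0.23 (adjusted p 0.0438). When a library was left out, the first call stood only without vector 1, F-78(WT) 1 or F-78(WT) 2. The other 2 calls stood only without a vector library or F-78(WT) 2. The first call was also lost with all libraries thinned to the shallowest (adjusted p 0.0564). All 6 epithelial markers had negative values in F-78(NLS Mut) against vector, with a median of -0.12. None of the 4 tested markers of other cell types was called by edgeR or DESeq2, 1 had an unadjusted p under 0.05, and the largest, those of PDGFRB (0.50, adjusted p 0.186) and VWF (-0.67, adjusted p 0.829), came from levels of at most 11.7 CPM. The part of these markers in the levels of the hosts was not tested.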

How the data were processed

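Total RNA of 9 H1975 libraries (3 each of vector, F-78(WT) and NLS Mut, all with si78) was sequenced. Read counts for each gene, not normalized, are what the authors deposited, in the layout of STAR. The submitters' processing notes name STAR 2.7.9a, DESeq2 1.36.0 and GRCh38.p14. The annotation release is not given in the sources used here. The unstranded column was used, since 50.6% to 51.9% of reads fell on the forward strand. Between 27.6% and 30.7% of reads stood in 4 summary lines without a gene, which were left out. Coordinates, exon lengths and transcript starts came from GENCODE 29 (GRCh38), which held 58342 of 61544 genes, and start windows and snoRNA genes from RefSeq.

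Counts were fitted in edgeR 4.0.16 (R 4.3.3) by the quasi-likelihood test with TMM factors, filterByExpr and 1 coefficient per group over all 9 libraries. SE is the absolute log2 fold change over the square root of F. P-values were adjusted by Benjamini-Hochberg over 18653 genes, with a threshold of 0.05. The median biological coefficient of variation was 11.2%. The fit was tested on simulated data. DESeq2 1.42.0, other scalings, filters, strands, blocks, depths and libraries were tried as alternatives, and levels per kilobase with both strands summed were added after seeing the data. Named genes were the 10 hosts, from each list the called genes or otherwise the largest log2 fold change, the tested neighbours that overlap a host or start within 2000 bases, HSPA5 and the markers. A further tested neighbour is not reported here. The hosts and lists were chosen with earlier results of these data known.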

Additional observations from a re-analysis of the deposited data

How the results depend on the processing

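The number of hosts called in F-78(WT) against vector was 1 and changed with the processing: 3 with DESeq2, 2 without a filter on low counts (SNHG12 joined), 2 with the GC correction (SNHG1 joined), and 0 with only the 2 groups in the fit, with all libraries thinned to the shallowest or at an adjusted p under 0.01. Leaving out single libraries gave 0 to 3 (3 without vector 1, where SNHG12 and SNHG15 joined EPB41L4A-AS1, and 2 without F-78(WT) 2). The calls over all genes moved as well. They were 104 in the main fit and ran from 26 (only the 2 groups) to 289 (no filter) over alternatives that kept all libraries of these groups. DESeq2 gave 135 higher and 121 lower, and the GC correction 105 and 75. Without 1 library the calls over all genes ran from 19 to 1256 (without vector 1). In F-78(WT) against NLS Mut the count rose from 0 to 1 (GAS5) with DESeq2, with only the 2 groups, with the GC correction, and without vector 1, and was 0 without any other library. Over all genes the calls there were 94, and ran from 85 to 479 over the alternatives and from 27 to 388 without 1 library. The count stayed at 0 for NLS Mut against vector in every alternative run. With the replicate number as a replicate block, 2 hosts (EPB41L4A-AS1 and SNHG12) were called in F-78(WT) against vector and 0 in the other comparisons, and with the block and the GC correction the counts were 2 (EPB41L4A-AS1 and SNHG1), 0 and 1 (GAS5). Over all genes the block alone gave 78 higher and 154 lower in F-78(WT) against vector, where the main fit gave 40 and 64. Same-numbered libraries correlated at -0.0323 to 0.106 in their deviations from the group means, and differently numbered ones at -0.11 to 0.075. The labels do not say what the numbers mark, so they were not taken as pairs in the main fit. The cause of these changes was not tested.

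Without 1 library the median log2 fold change of the hosts ran from -0.19 to -0.13 in F-78(WT) against vector and from -0.21 to -0.15 in F-78(WT) against NLS Mut. Signs turned only in hosts near zero. SNHG6 in F-78(WT) against vector measured -0.039 with both strands summed, -0.022 with the GC correction and -0.019 with block and GC correction, and ran from -0.089 to 0.13 without 1 library. Against vector, NLS Mut gave SNHG6 at -0.040 with the GC correction, -0.037 with block and GC correction, and from -0.10 to 0.12 without 1 library. Between F-78(WT) and NLS Mut, SNHG6 measured -0.000938 by library size alone, -0.048 with both strands and -0.00192 after thinning, and ran from -0.050 to 0.097 without 1 library. In F-78(WT) against vector SNHG5 ran from -0.15 to 0.45 without 1 library. In NLS Mut against vector SNHG15 ran from -0.11 to 0.053 and ZFAS1 from -0.053 to 0.046 without 1 library, ZFAS1 measured -0.018 by library size alone and -0.000742 without a filter, and SNHG16 measured -0.00144 and -0.00106 under the GC correction without and with the block. With 20 to 82 reads per library, SNHG5 is the host most limited by depth.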
